A study of Homo sapiens with 16 samples.

Results

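The enzymes that add methyl groups to histone lysines or to DNA, and those that take them off, were examined in clones of a breast cancer line with and without tristetraprolin (TTP). They were chosen by gene symbol: the KDM, KMT, SETD, EHMT, SUV39H, EZH, NSD, DNMT, TET and UHRF families with DOT1L. Of the 14857 genes in the table, 52 carried such a symbol. Of these, 22 were grouped as histone methyltransferases, KMT2E among them, and 5 as other SET domain proteins. A further 17 were grouped as histone demethylases, 5 as DNA methyltransferases or UHRF proteins and 3 as TET dioxygenases.

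RNA came from MDA-MB-231, a human triple-negative breast cancer cell line, carrying a tet-off system in which doxycycline keeps the introduced plasmid silent. Clones E11 and H3 carried a TTP plasmid (TTP_E11 and TTP_H3), and clones A and B an empty vector (EV_A and EV_B), with 4 libraries each, 16 in all. All 4 clones were stated to be kept in G418 at 400 µg/mL and hygromycin B at 100 µg/mL, and the cells with TTP also in doxycycline at 2 µg/mL, with all of these removed for 24 h or longer before an experiment. TTP, encoded by ZFP36, binds AU-rich stretches in the 3′ untranslated region (UTR) of mRNAs and speeds their decay.

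Each arm held 2 stable clones, so TTP, clonal origin and doxycycline history cannot be told apart. The 4 libraries of a clone are described as biological replicates, and p-values therefore measure the spread between cultures and not between clones. In bulk RNA, fewer cells of a kind and less RNA per cell cannot be told apart. Samples were grouped by library name, because the titles of 7 of the 8 TTP libraries say EV. ZFP36 stood at 10160 to 15040 normalized counts in the libraries named TTP and at 213.5 to 282.2 in those named EV. The libraries held 14380767 to 22066098 reads on listed genes. VIM, CD44 and EGFR, abundant in this line, summed to 38030 to 40520 in TTP and 51950 to 54580 in EV libraries. Of 5 genes taken as low or silent in this line, ESR1, PGR and CDH1 had no row in the table. EPCAM and ERBB2 were listed and not silent, at sums of 2691 to 3216 in TTP and 2306 to 2654 in EV libraries. In a principal component plot, replicate 3 of TTP_H3 and replicate 4 of EV_B stood apart from the other libraries of their clones.

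Methyl groups on histone lysines are placed by SET domain enzymes and by DOT1L, which lacks that domain. They are removed by flavin-dependent LSD enzymes and by JmjC dioxygenases, which need iron and 2-oxoglutarate. Marks on H3K4, H3K36 and H3K79 accompany active genes, whereas those on H3K9, H3K27 and H4K20 are linked with silencing and compaction. DNMT enzymes methylate cytosine, UHRF1 brings DNMT1 to newly copied DNA, and TET dioxygenases oxidise the methyl group.

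All values below are normalized counts (reads divided by 1 size factor per library) unless given per kilobase of exon. Log2 changes are differences of mean log2(normalized count + 1), with adjusted p from limma over all 14857 genes and a threshold of 0.05. The 52 genes had a median mean level of 1187, against 433.3 for all listed genes. Per kilobase of merged exon, the highest level was that of DNMT1, the maintenance DNA methyltransferase, at 778.4 on average over the clones. UHRF1 followed at 724.9 per kilobase, and the library ranges of this pair overlapped. KDM1A, the demethylase LSD1, came next at 512.6 per kilobase. The lowest levels per kilobase were those of TET1 at 3.25, KDM4C at 5.32 and KDM4D at 9.66. Of the 51 neighbouring pairs in this order, 49 had overlapping library ranges, so only the rough order is given by these data. The order also depended on the length used. Per kilobase of the longest transcript it began with DNMT1 (1410), NSD2 (1012), KDM1A (911.6) and UHRF1 (865.6).

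Most of these enzymes differed between the arms by small amounts. In TTP clones 15 were higher and 21 lower than in EV clones, and the other 16 did not pass the test. A call in 36 of 52 (69.2%) is close to the 70.0% of all genes called in the same comparison. The higher calls made up 28.8% of the enzymes, against 35.4% of all genes, and the lower calls 40.4%, against 34.6%. The median log2 change was -0.05 for the enzymes and 0.00 for all genes, and the median absolute change was 0.17 and 0.25. The changes ran from -0.78 for TET1 to 0.46 for KDM7A.

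Each TTP clone alone gave a like count against both EV clones. In TTP_E11 15 enzymes were higher and 19 lower, where 64.6% of all genes were called (32.6% higher and 32.0% lower). In TTP_H3 16 were higher and 21 lower, where 64.7% were called (32.7% higher and 32.0% lower). These comparisons share the EV libraries.

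Because a change can come from 1 clone, each TTP clone was also set against each EV clone. A gene counted as concordant if each of these 4 contrasts passed with 1 sign. This held for 22 enzymes (42.3%), against 38.5% of all genes. The 10 higher ones were DNMT3A, DNMT3B, EHMT2, KDM1A, KDM2B, KDM4A, KDM6B, KDM7A, SETD1A and SETD6 (background for higher 19.0%). The 12 lower ones were DNMT1, DOT1L, EZH2, KDM1B, KDM2A, KMT2A, KMT5A, NSD1, NSD2, NSD3, SETD3 and TET2 (background for lower 19.5%). Only DOT1L and KMT5A were concordant with a change of at least 0.4 in each contrast, 3.85% of the enzymes against 16.2% of all genes. In 14 of the 52 (26.9%) the 8 TTP libraries did not overlap the 8 EV libraries, against 31.8% of all genes. Of these, 6 were higher and 8 lower, with 15.6% and 16.2% of all genes as background. With the reads of a clone summed, so that 2 clones stood against 2, edgeR called 3 enzymes higher (EHMT2, KDM2B and KDM7A) and 6 lower (DOT1L, EZH2, KDM1B, KMT5A, SETD3 and TET2), where 14.5% of all genes were higher and 14.3% lower. Those 9 are 17.3% of the enzymes, against 28.8% of all genes called by that test. With scaling to total reads in place of the authors' size factors, the median of all genes moved to 0.08. The higher share of all calls became 61.4%, against 50.6% with the authors' scaling, and the concordant enzymes became 14 higher and 7 lower. KDM2A, KMT2A, NSD1 and NSD3 were no longer concordant with scaling to total reads or with upper quartile scaling. KDM1B was no longer concordant with scaling to total reads. Without both libraries that stood apart, 18 enzymes were higher and 22 lower, where 10591 of the 14857 genes were called. Then 11 enzymes in each direction were concordant, where 40.3% of all genes were. When 1 library was left out at a time, 6 of the 10 higher and 8 of the 12 lower enzymes stayed concordant every time. Those that did not were DNMT3A, DNMT3B, KDM4A and KDM6B among the higher and KDM1B, KMT2A, NSD1 and NSD3 among the lower.

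**Figure D1:**
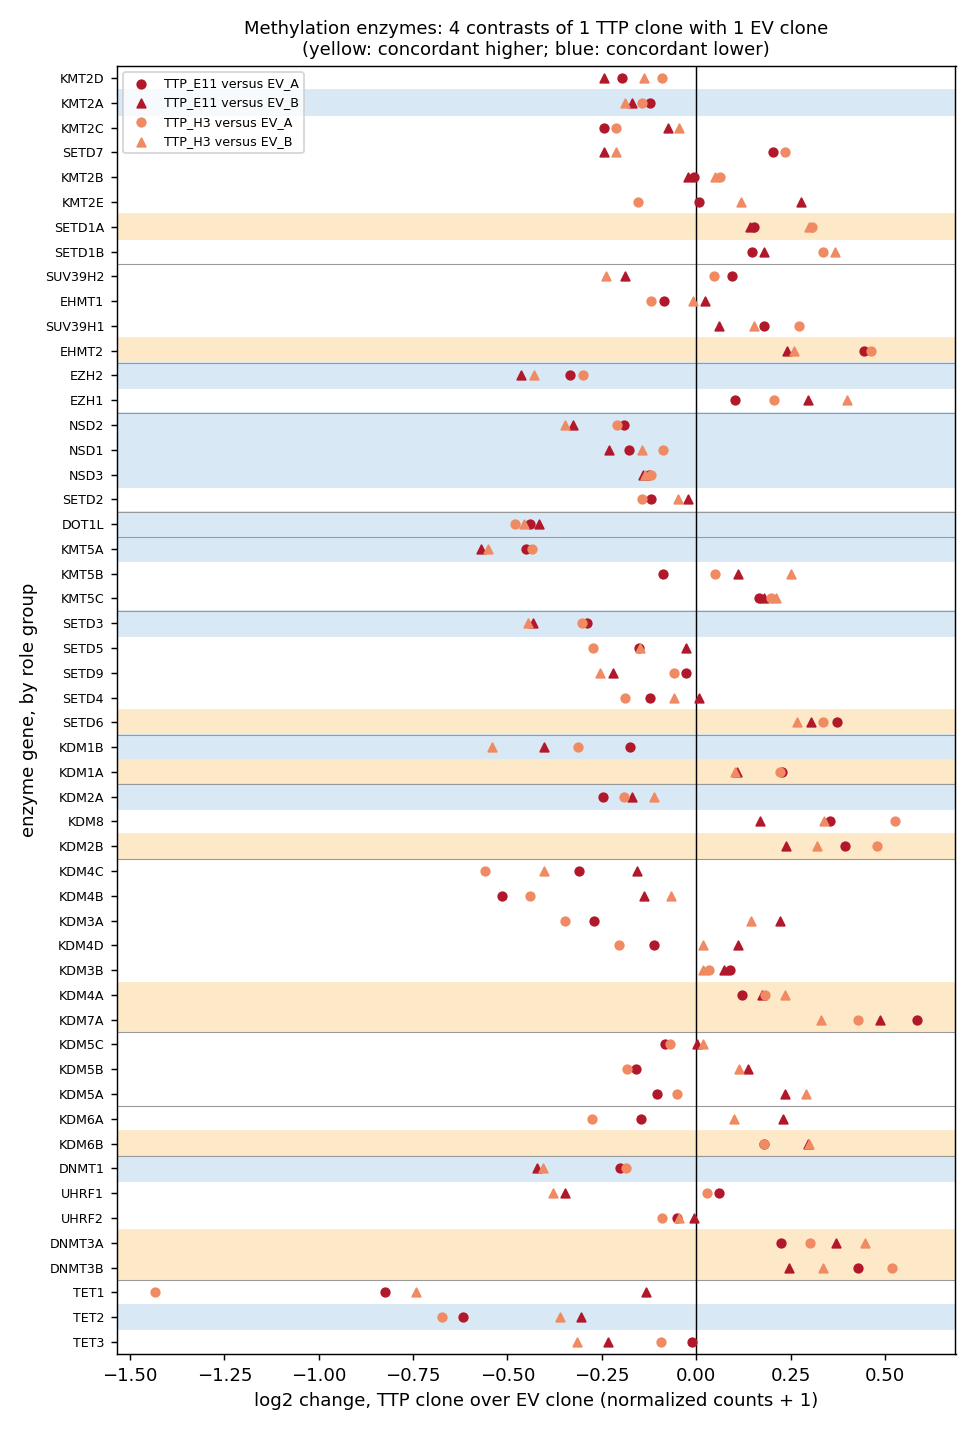
Log2 change of each enzyme (rows, by role group) in the 4 contrasts of 1 TTP clone (colour) with 1 EV clone (symbol), on normalized counts + 1. Yellow bands mark the 10 concordant higher and blue bands the 12 concordant lower genes, and TET1 reaches farthest to the left.

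The changes of at least 0.4 in each contrast belonged to a writer of H4K20 and to the writer of H3K79. KMT5A (chr12:123383773-123409358, GRCh38, plus strand) encodes the enzyme that places the first methyl group on H4K20. It stood at 1048, 1046, 1005 and 961.3 normalized counts in TTP_E11 and at 997.2, 1020, 1115 and 978.5 in TTP_H3, against 1375, 1453, 1342 and 1380 in EV_A and 1427, 1459, 1524 and 1619 in EV_B. Every TTP library was below every EV library, and the TTP clones were level with each other. The log2 change was -0.50 ± 0.0338 (SE), with an adjusted p of 1.1e-14 from limma. KMT5B and KMT5C, which extend that mark to its higher states, did not follow it. KMT5B had a log2 change of 0.08 (limma adjusted p = 0.0961). KMT5C passed at 0.19 (limma adjusted p = 0.0395), was not concordant, and lost its call when any 1 of 10 libraries was left out.

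DOT1L (chr19:2164149-2232578, plus strand), the H3K79 methyltransferase, stood at 1708, 1828, 1680 and 1669 normalized counts in TTP_E11 and 1569, 1817, 1697 and 1617 in TTP_H3, against 2533, 2327, 2293 and 2194 in EV_A and 2285, 2295, 2222 and 2387 in EV_B. The arms did not overlap and the clones within each arm did. The log2 change was -0.45 ± 0.0322 (SE), with an adjusted p of 5.44e-14 from limma. Exons of PLEKHJ1 on the other strand overlap those of DOT1L over 529 bases. The sources used here do not say whether strand was used in the counting, so reads of such a pair cannot be told apart.

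Since TTP acts on AU-rich stretches, the heptamer TATTTAT was looked for in 1 annotated 3′ UTR per gene (GENCODE 29, GRCh38). It was present in 23 of 52 enzymes (44.2%), against 3893 of 12590 listed genes (30.9%). KDM3A, SETD1B and SUV39H2 were counted as lacking it because the transcript used had a 3′ UTR of 0 bases. Among concordant lower enzymes 5 of 12 held it (41.7%), against 47.6% of concordant lower genes in all. Among concordant higher enzymes 6 of 10 held it (60.0%), against 19.4% of concordant higher genes in all. These counts are small and are a description, and a match is not shown to be a bound site. The enzymes' 3′ UTRs had a median length of 1301 bases, against 975.5 over all listed genes. All sites of the 2 lower genes with at least 0.4 in each contrast are shown, with part of the 5 sites of KDM7A, a higher gene. The part of the heptamer in the changes of these genes was not tested. Capitals mark 1 heptamer per line, written as DNA and 5′ to 3′ on the gene's strand. The KDM7A line that starts at 140088025 holds an overlapping heptamer, in part in lower case.
DOT1L, chr19:2229984-2230010: ttagataaagTATTTATcattttttaa
DOT1L, chr19:2230748-2230774: gaaaaaacctTATTTATtcaaacagtg
KMT5A, chr12:123409327-123409353: caaattaaaaTATTTATtgccaggcaa
KDM7A, chr7:140090691-140090717: tttttaaagcTATTTATttggaagatt
KDM7A, chr7:140088025-140088051: tagtctactgTATTTATttatatggga
KDM7A, chr7:140085002-140085028: aagtgtacagTATTTATtttgtttctg
KDM7A and TET3 held 5 such heptamers each in the 3′ UTR read, and 2 of those in KDM7A overlap each other. DNMT1 and EZH2, both concordant lower, held none there or in their longest annotated 3′ UTR. The choice of transcript mattered for NSD2, also concordant lower, which held 0 in the 3′ UTR read and 6 in its longest one. SETD1B and SUV39H2 held 1 each in their longest 3′ UTR, and KDM6A went from 2 to 0. With the longest 3′ UTR of each gene, 25 of 52 enzymes held the heptamer (48.1%), against 35.3% of listed genes. On that choice, 6 of 12 concordant lower enzymes held the heptamer (against 52.8% of concordant lower genes in all), and 6 of 10 concordant higher ones (against 22.7%).

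**Figure D2:**
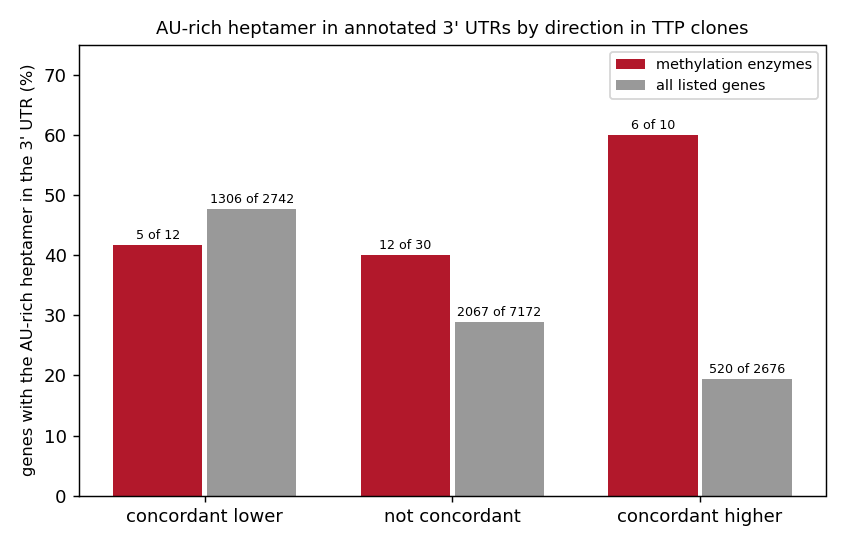
Share of genes (y axis, percent) whose annotated 3′ UTR holds the AU-rich heptamer, for the methylation enzymes and for all listed genes, by direction in TTP clones (x axis). The enzymes' share is 60.0% in the concordant higher group, against 19.4% for all genes there, with only 10 enzymes in that group.

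Among the H3K27 writers, the catalytic subunits of Polycomb repressive complex 2 went in opposite directions. EZH2 stood at 1580, 1682, 1553 and 1677 normalized counts in TTP_E11 and 1656, 1582, 1803 and 1607 in TTP_H3, against 2067, 2031, 2097 and 1985 in EV_A and 2180, 2110, 2252 and 2415 in EV_B. All TTP libraries lay below all EV libraries. The log2 change was -0.38 ± 0.0314 (SE), with an adjusted p of 1.43e-12 from limma. EZH1, the paralog of lower catalytic activity, stood at 799.9, 779.8, 753.3 and 840.6 in TTP_E11 and 867, 790.4, 894.8 and 862.1 in TTP_H3, against 786.4, 747.3, 712.7 and 710.9 in EV_A and 626.1, 663.9, 699.2 and 599 in EV_B. Its log2 change was 0.25 (limma adjusted p = 9.81e-07), and it was not concordant, since TTP_E11 against EV_A did not pass (limma adjusted p = 0.109). The log2 ratio of EZH2 to EZH1 within a library averaged 1.00 in TTP and 1.63 in EV. The difference of -0.63 had an adjusted p of 0.000518 over the 10 ratios tested, by an exact two-sided permutation test of 8 against 8 libraries, and the libraries did not overlap. The smallest p this test can give is 0.000155, and over the 4 clones alone it could not go below 0.333.

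Of the 4 H3K9 writers 2 were higher and none lower, against 35.4% and 34.6% of all genes. EHMT2, also known as G9a, stood at 3445, 3357, 3367 and 3318 normalized counts in TTP_E11 and 3272, 3540, 3438 and 3412 in TTP_H3, against 2552, 2534, 2386 and 2442 in EV_A and 2848, 2726, 2758 and 3104 in EV_B. The arms did not overlap, and EV_B stood above EV_A. The log2 change was 0.35 ± 0.0271 (SE), with an adjusted p of 3.04e-13 from limma. Its partner EHMT1, known as GLP, was at 1797, 1599, 1696 and 1604 in TTP_E11 and 1595, 1714, 1637 and 1593 in TTP_H3, against 1814, 1697, 1777 and 1812 in EV_A and 1676, 1620, 1590 and 1694 in EV_B. These ranges overlapped, and the log2 change was -0.05 (limma adjusted p = 0.153). The log2 ratio of EHMT2 to EHMT1 averaged 1.04 in TTP and 0.64 in EV, with no overlap (difference 0.40, exact permutation test, adjusted p = 0.000518). EHMT2 shares 592 exon bases with the antisense gene EHMT2-AS1.

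SUV39H1 and SUV39H2 both place the H3K9 trimethyl mark of heterochromatin. SUV39H1 stood at 1179, 1153, 1174 and 1164 normalized counts in TTP_E11 and 1252, 1192, 1297 and 1238 in TTP_H3, against 1007, 1012, 1043 and 1062 in EV_A and 1139, 1049, 1109 and 1186 in EV_B. It rose by 0.17 on the log2 scale (limma adjusted p = 1.56e-05), with an overlap between TTP_E11 and EV_B. SUV39H2 was at 742.3, 729.8, 724.7 and 715.2 in TTP_E11 and 700.5, 706.8, 698.3 and 709.5 in TTP_H3, against 650.1, 712, 702.3 and 662.1 in EV_A and 787.9, 811.1, 807.7 and 920.6 in EV_B. Both TTP clones lay between the EV clones or overlapped EV_A, and the log2 change was -0.07 (limma adjusted p = 0.0805). The log2 ratio of SUV39H2 to SUV39H1 averaged -0.75 in TTP and -0.51 in EV (difference -0.24, exact permutation test, adjusted p = 0.00117), with overlapping libraries.

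The 4 H3K36 writers were lower in TTP clones, and 3 of them were concordant, against 34.6% and 19.5% of all genes. NSD2, which places the dimethyl mark, had the largest change of the group at -0.27 (limma adjusted p = 9.95e-12). NSD1 and NSD3, its relatives, had log2 changes of -0.16 and -0.13. SETD2, the enzyme of the trimethyl mark, which travels with elongating RNA polymerase II, had -0.08 (limma adjusted p = 0.00426). With scaling to total reads, NSD3 and SETD2 did not pass, at -0.05 and -0.00 (limma adjusted p = 0.12 and 0.918). Of the 4, only NSD2 was concordant with that scaling or with upper quartile scaling.

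The 8 genes grouped as H3K4 writers include KMT2E, which has little or no enzyme activity. They differed in both directions and by small amounts, with 2 called higher and 3 lower, against 35.4% and 34.6% of all genes. With scaling to total reads 5 were higher and 1 lower, where the higher share of all calls was 61.4%. SETD1A was concordant higher (log2 change 0.22), SETD1B was higher (0.26), and KMT2A was concordant lower. The concordance of KMT2A was lost with upper quartile scaling and with scaling to total reads. KMT2A, also called MLL1, stood at 2738, 2654, 2589 and 2461 normalized counts in TTP_E11 and 2532, 2584, 2604 and 2568 in TTP_H3, against 2957, 2781, 2798 and 2825 in EV_A and 3170, 2856, 2703 and 3025 in EV_B. The log2 change was -0.16 (limma adjusted p = 1.74e-05), and 1 EV_B library lay within the TTP range. Its closest paralog KMT2B was at 2138, 2048, 2047 and 2066 in TTP_E11 and 2151, 2300, 2137 and 2130 in TTP_H3, against 2253, 2053, 1994 and 2048 in EV_A and 2123, 2059, 2053 and 2188 in EV_B. These ranges overlapped (log2 change 0.02, limma adjusted p = 0.514). Within libraries the log2 ratio of KMT2B to KMT2A averaged -0.28 in TTP and -0.46 in EV, with no overlap (difference 0.18, exact permutation test, adjusted p = 0.000518). The enhancer enzymes KMT2C and KMT2D were lower by log2 changes of -0.14 and -0.17, neither concordant, and their ratio differed by -0.02 (exact permutation test, adjusted p = 0.705).

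Of the other SET domain proteins, SETD3, which methylates a histidine of actin, was concordant lower (log2 change -0.37, limma adjusted p = 1.36e-12). SETD6, which methylates the NF-kB subunit RELA, was concordant higher (0.32, limma adjusted p = 5.81e-06). SETD6 shares 1086 exon bases with CNOT1 on the other strand. SETD5 was lower at -0.15 without being concordant, and SETD4 and SETD9 did not pass.

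**Figure D3:**
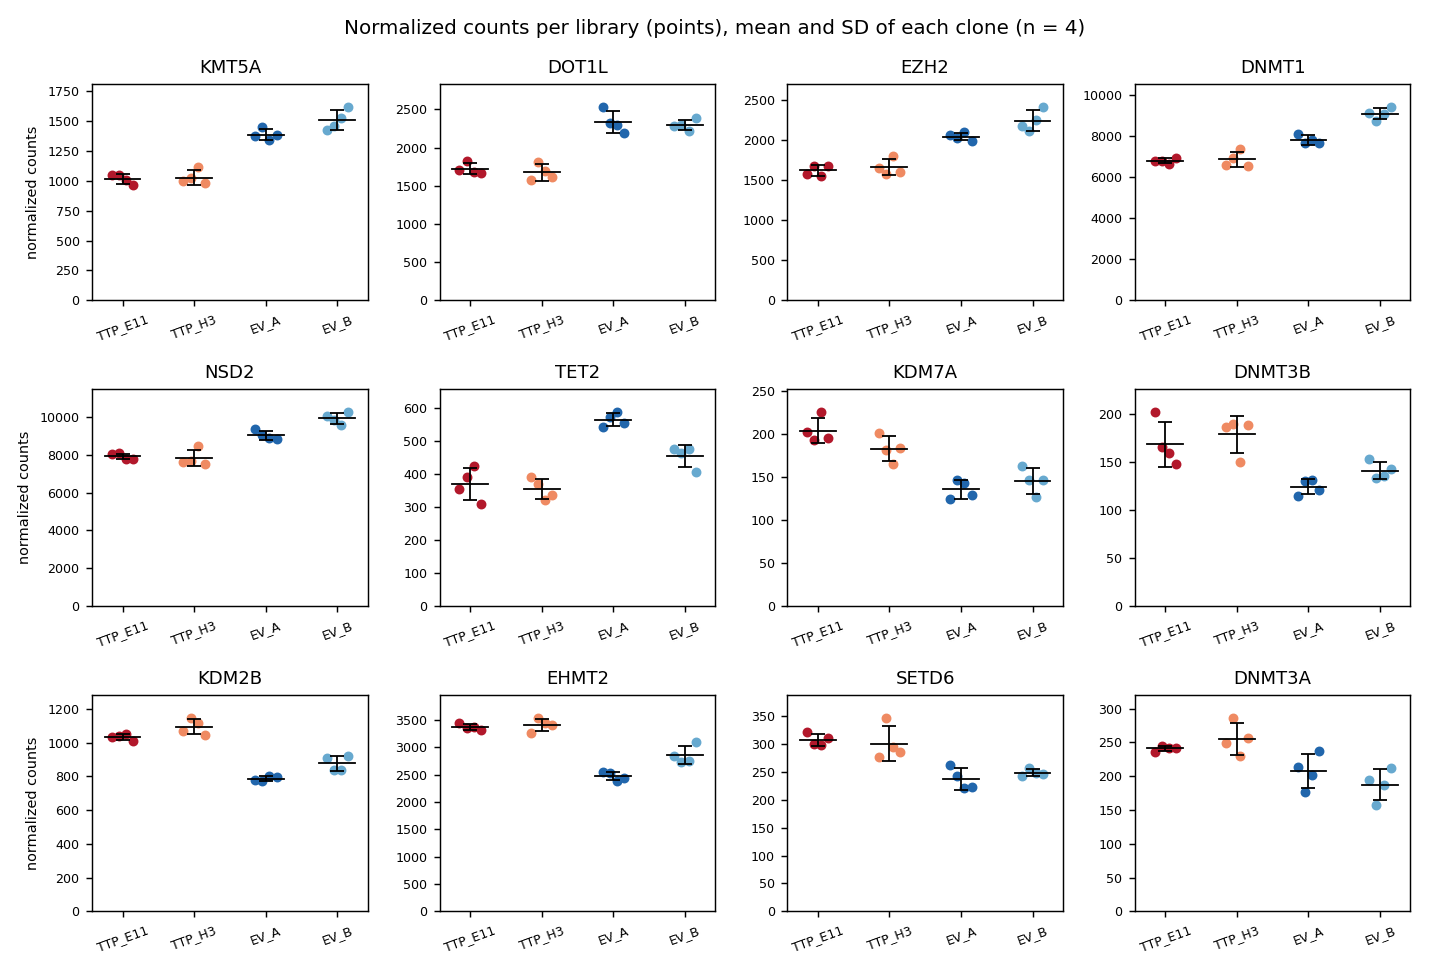
Normalized counts (y axis, from 0) of 12 of the concordant enzymes in every library (points), with the mean and SD of each clone (bars, n = 4). KMT5A and DOT1L lie lower in all 8 TTP libraries than in any EV library, and EHMT2 and KDM2B lie higher.

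Histone demethylases were called higher in 6 cases and lower in 4, with 7 of 17 not passing, where 35.4% of all genes were higher and 34.6% lower. Of the flavin-dependent pair, KDM1B (LSD2) was concordant lower (log2 change -0.36, limma adjusted p = 2.69e-09) and KDM1A (LSD1) concordant higher (0.16, limma adjusted p = 4.86e-07). The KDM2 pair, which removes H3K36 methyl groups and binds CpG islands, was split in the same manner. KDM2B ranged from 1007 to 1146 normalized counts in TTP and from 771.4 to 920.6 in EV libraries (log2 change 0.36, limma adjusted p = 1.64e-11). KDM2A fell by 0.18 on the log2 scale (limma adjusted p = 8.12e-08). Its concordance was lost with upper quartile scaling and with scaling to total reads.

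Among the H3K9 demethylases KDM7A had the largest rise, at 165.6 to 225.2 normalized counts in TTP and 124.2 to 162.9 in EV libraries (log2 change 0.46 ± 0.0691 SE, limma adjusted p = 5.76e-07). KDM4A was concordant higher at 0.18. KDM4B was lower on average (-0.29, limma adjusted p = 1.8e-09), but its contrast of TTP_H3 with EV_B did not pass (limma adjusted p = 0.217). It stood at 1049 to 1227 in the TTP libraries, against 1529 to 1591 in EV_A and 1145 to 1256 in EV_B. EV_A thus stood alone above the other 3 clones. KDM4C, the other one called lower, had a log2 change of -0.36 (limma adjusted p = 0.0101) and lost its call with EV_B as the only control (-0.28, limma adjusted p = 0.103).

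The H3K27 demethylases KDM6A (UTX) and KDM6B (JMJD3) differed in behaviour. KDM6B stood at 551.7, 487.5, 426.3 and 485.7 normalized counts in TTP_E11 and 498.6, 506.3, 448.9 and 492.9 in TTP_H3, against 468, 425.1, 417.4 and 407.4 in EV_A and 411.5, 443.7, 355.8 and 376.1 in EV_B. It was concordant higher (log2 change 0.24, limma adjusted p = 0.000159), although the library ranges overlapped and the concordant call was lost when any 1 of 9 libraries was left out. KDM6A was at 883.9, 931.9, 933.8 and 884.8 in TTP_E11 and 841.8, 845.4, 820 and 815.1 in TTP_H3, against 1017, 1033, 975.1 and 1000 in EV_A and 790.1, 777.2, 822 and 714.6 in EV_B. The TTP clones stood below EV_A, TTP_E11 above EV_B and TTP_H3 overlapping EV_B, with a log2 change of -0.02 (limma adjusted p = 0.537). The log2 ratio of KDM6B to KDM6A averaged -0.84 in TTP and -1.10 in EV (difference 0.26, exact permutation test, adjusted p = 0.019), with overlapping libraries. By clone it averaged -0.90 in TTP_E11, -0.77 in TTP_H3, -1.23 in EV_A and -0.97 in EV_B. EV_B thus lay closer to TTP_E11 than to EV_A. The test takes libraries as independent and does not measure the spread between clones.

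None of the 3 H3K4 demethylases passed between the arms with the authors' scaling, and 1 was called higher with each of the other scalings. KDM5A was at 756.1, 607.2, 672 and 629.5 normalized counts in TTP_E11 and 671.2, 662.1, 708.3 and 717.6 in TTP_H3, against 651.3, 731.5, 735.2 and 740.2 in EV_A and 553.5, 557, 608.9 and 536.9 in EV_B. KDM5B, often abundant in breast cancer, was at 1493, 1479, 1460 and 1403 in TTP_E11 and 1466, 1440, 1392 and 1438 in TTP_H3, against 1557, 1680, 1620 and 1656 in EV_A and 1369, 1374, 1315 and 1251 in EV_B. For both genes the EV clones lay farther from each other than the TTP clones did. The log2 ratio of KDM5B to KDM5A averaged 1.09 in TTP and 1.21 in EV (difference -0.12, exact permutation test, adjusted p = 0.0409). That call was lost when any 1 of 11 libraries was left out, with adjusted p up to 0.0793 by the same exact test.

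**Figure D4:**
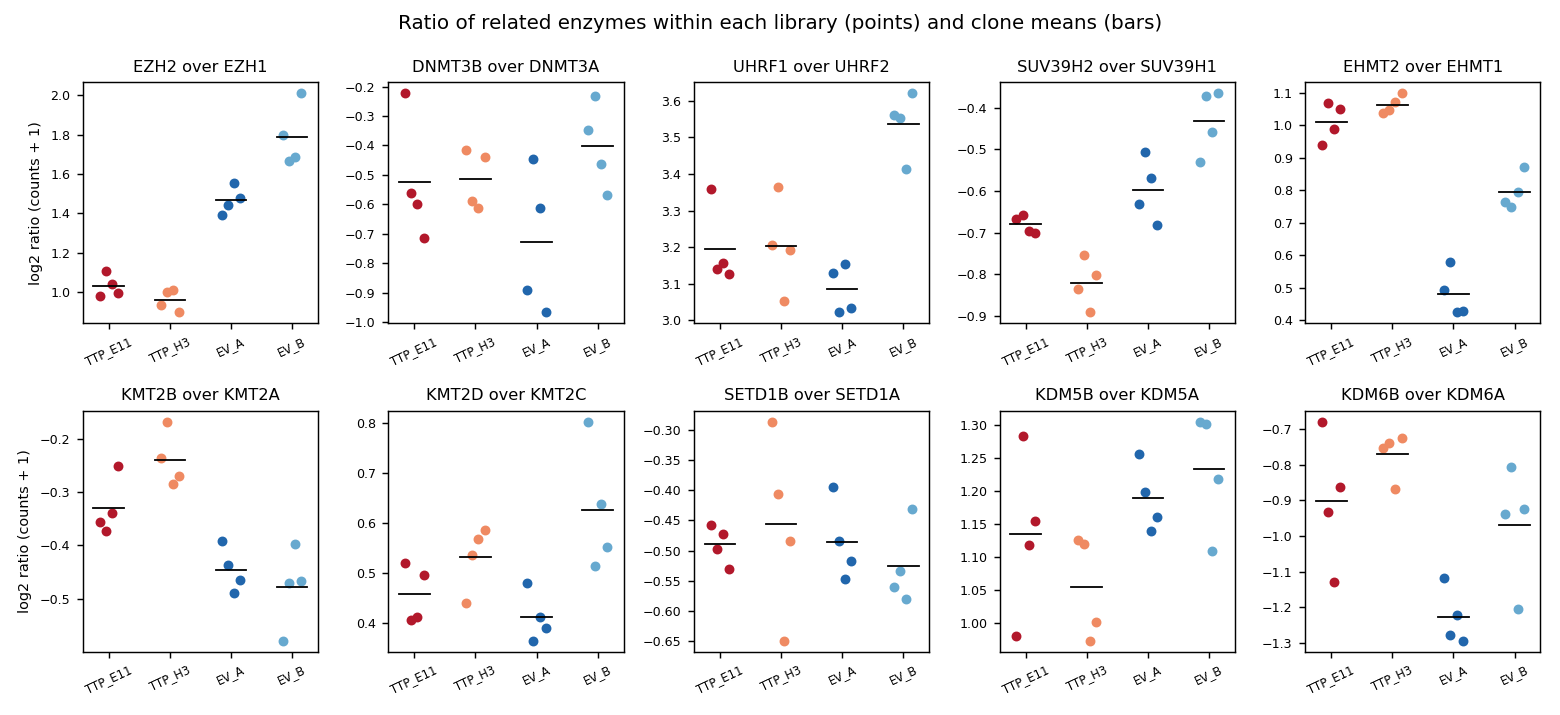
Log2 ratio (y axis, normalized counts + 1) of the paralogs or partners named above each panel in every library (points), with clone means (bars). The panels of EZH2 over EZH1, EHMT2 over EHMT1 and KMT2B over KMT2A show no overlap between TTP and EV libraries.

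In the DNA methylation group the maintenance enzyme was lower and the de novo enzymes higher in TTP clones. DNMT1 stood at 6756, 6790, 6636 and 6931 normalized counts in TTP_E11 and 6602, 6933, 7334 and 6540 in TTP_H3, against 8109, 7630, 7776 and 7651 in EV_A and 9097, 8731, 9075 and 9404 in EV_B. The arms did not overlap, and EV_B was higher than EV_A by 0.22 on the log2 scale. The log2 change between the arms was -0.30 ± 0.0242 (SE), with an adjusted p of 6.59e-13 from limma.

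DNMT3A, a de novo methyltransferase, stood at 235.7, 245.2, 241.3 and 242.4 normalized counts in TTP_E11 and 249.3, 286.4, 229.4 and 256.4 in TTP_H3, against 213.5, 177.3, 201.8 and 237 in EV_A and 194.8, 156.7, 186.5 and 212.5 in EV_B. DNMT3B, its paralog, stood at 201.9, 165.8, 159.1 and 147.5 in TTP_E11 and 186.7, 190.2, 149.6 and 188.7 in TTP_H3, against 114.6, 130, 131.6 and 120.7 in EV_A and 153, 133.4, 135.1 and 142.9 in EV_B. For each gene a single EV library reached into the TTP range. The log2 changes were 0.34 for DNMT3A and 0.38 for DNMT3B (limma adjusted p = 4.95e-05 and 3.44e-05). Their ratio differed by 0.05 between the arms (exact permutation test, adjusted p = 0.705). Their concordant calls were near the threshold. The weakest contrasts were TTP_E11 with EV_A for DNMT3A and TTP_E11 with EV_B for DNMT3B (limma adjusted p = 0.0406 and 0.0443). DNMT3A lost its concordant call without any 1 of the 4 TTP_E11 libraries or without replicate 2 or 3 of EV_A. DNMT3B lost its own without replicate 1 or 2 of TTP_E11 or replicate 2, 3 or 4 of EV_B.

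UHRF1 stood at 3828, 3404, 3475 and 3471 normalized counts in TTP_E11 and 3362, 3646, 3576 and 3289 in TTP_H3, against 3489, 3346, 3302 and 3453 in EV_A and 4443, 4376, 4392 and 4824 in EV_B. EV_B alone stood above the other clones. The averaged log2 change of -0.16 (limma adjusted p = 9.28e-06) became 0.04 with EV_A as the only control (limma adjusted p = 0.267). UHRF2, the related ubiquitin ligase, was at 372.4, 385.5, 388.7 and 396.3 in TTP_E11 and 363.4, 352.8, 429.9 and 359.3 in TTP_H3, against 398, 411.2, 369.8 and 420.7 in EV_A and 375.2, 371.7, 411 and 391.2 in EV_B, with overlapping ranges. Its log2 change of -0.05 did not pass (limma adjusted p = 0.384).

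The 3 TET genes passed as lower in the averaged contrast, and TET2 was concordant, against 34.6% and 19.5% of all genes. TET2 stood at 354.8, 389.4, 422.7 and 307.8 normalized counts in TTP_E11 and 388.6, 370, 320.2 and 335.8 in TTP_H3, against 540.3, 570.9, 585.4 and 554.7 in EV_A and 474.3, 461.7, 474.7 and 405.3 in EV_B. Replicate 4 of EV_B was the only EV library within the TTP range (log2 change -0.49, limma adjusted p = 3.13e-09). TET1 was at 22.57, 30.41, 22.34 and 30.42 in TTP_E11 and 22.2, 21.76, 12.97 and 12.64 in TTP_H3, against 51.86, 42.7, 51.09 and 43.49 in EV_A and 30.81, 38.12, 29.49 and 19.75 in EV_B. EV_A stood above every other library at these low levels, while EV_B overlapped the TTP clones, and the call (log2 change -0.78, limma adjusted p = 7.58e-05) was lost with EV_B as the only control (-0.44, limma adjusted p = 0.055).

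TET3 was at 506.5, 505.2, 481.7 and 440.6 in TTP_E11 and 450.2, 473.1, 430.9 and 469.4 in TTP_H3, against 527.1, 471.6, 525.6 and 427.8 in EV_A and 631.6, 545.3, 517.5 and 583 in EV_B. EV_A overlapped both TTP clones. The log2 change of -0.16 (limma adjusted p = 0.00406) did not pass with scaling to total reads (-0.08, limma adjusted p = 0.134) or with EV_A as the only control (-0.05, limma adjusted p = 0.459).

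The EV clones, which both lack the TTP plasmid, differed in many of these enzymes. In EV_B 13 were higher and 15 lower than in EV_A, 53.8% of the enzymes, against 36.8% of all genes called in this comparison (20.2% higher and 16.6% lower). SETD7, an H3K4 monomethyltransferase that also acts on many other proteins, had the largest rise. It stood at 3173, 3106, 3101 and 3317 normalized counts in EV_B, against 2348, 2288, 2364 and 2317 in EV_A (log2 change 0.45, limma adjusted p = 6.63e-11), and at 2549 to 2908 in the TTP libraries. The TTP libraries thus all lay between the EV clones. UHRF1 and SUV39H2, with library values above, followed with log2 changes of 0.41 and 0.29 (limma adjusted p = 2.62e-09 and 4.61e-05).

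On the other side, TET1 had the largest fall in EV_B (log2 change -0.69, limma adjusted p = 0.0174). That call was lost without replicate 4 of EV_B, 1 of the libraries that stood apart (-0.52, limma adjusted p = 0.0928). KDM3A, an H3K9 demethylase induced by hypoxia, was next (-0.49, limma adjusted p = 2.94e-06). It stood at 775.8, 801.6, 715.4 and 590.5 normalized counts in EV_B, against 972.1, 1037, 1044 and 977.2 in EV_A, and at 741.8 to 870.1 in the TTP libraries. EV_A lay above the other clones. KDM6A and KDM4B followed (-0.38 and -0.37). All 3 H3K4 demethylases were also lower in EV_B than in EV_A, by log2 changes of -0.34 for KDM5A, -0.30 for KDM5B and -0.09 for KDM5C. Without replicate 4 of EV_B and replicate 3 of TTP_H3, 12 were higher and 15 lower, where 5557 of the 14857 genes were called.

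The TTP clones were closer to each other. In TTP_H3 1 enzyme was higher and 2 lower than in TTP_E11, 5.77% of the enzymes, against 11.7% of all genes (6.35% higher and 5.32% lower). At an unadjusted p under 0.05, limma, edgeR and DESeq2 each gave 10 enzymes, for which no share of all genes was worked out. SETD1A, the catalytic subunit of a COMPASS complex for H3K4, stood at 1398, 1540, 1295 and 1394 normalized counts in TTP_H3, against 1322, 1260, 1225 and 1238 in TTP_E11 (log2 change 0.16, limma adjusted p = 0.0227). KMT2E, a SET domain protein with little or no enzyme activity, was at 1407, 1349, 1182 and 1357 in TTP_H3, against 1512, 1515, 1517 and 1368 in TTP_E11 (-0.16, limma adjusted p = 0.0278). SETD5 was at 2667, 2747, 2692 and 2720 in TTP_H3, against 2984, 2882, 3047 and 2877 in TTP_E11 (-0.12, limma adjusted p = 0.024). SETD1A and KMT2E overlapped between the clones in 1 library, and SETD5 did not overlap. The counts of enzymes were unstable. When a library was left out, 0 to 3 were called in each direction, where 7.53% to 15.2% of all genes were called. Without both libraries that stood apart, 5 were higher and 1 lower, where 19.2% of all genes were called. ZFP36 itself was higher in TTP_H3 (13340 to 15040) than in TTP_E11 (10160 to 10940).

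**Figure D5:**
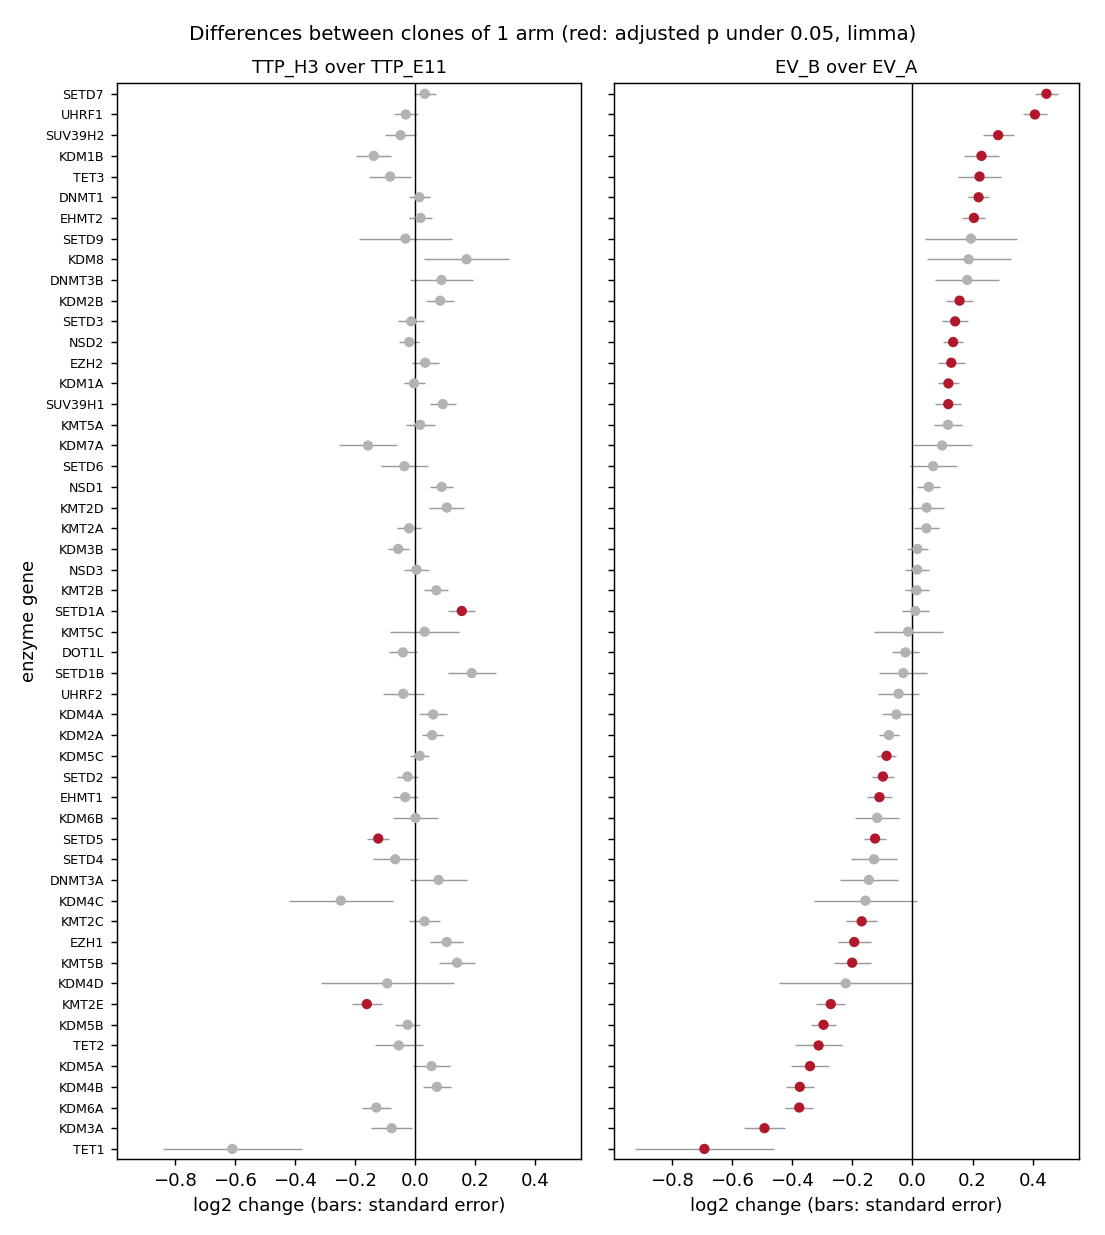
Log2 change of each enzyme between clones of the same arm (points, with SE as bars), TTP_H3 over TTP_E11 on the left and EV_B over EV_A on the right, with calls at a limma adjusted p under 0.05 in red. There are 3 calls on the left and 28 on the right, where the changes run from -0.69 for TET1 to 0.45 for SETD7.

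Genes that work with these enzymes were read from lists, with the 70.0% of all genes called as background. Of 16 partners in the Polycomb complexes 5 were higher and 8 lower, including CBX2 (log2 change 0.84), PHF1 (-0.60) and EED (0.33), the last a core subunit of the EZH2 complex. With scaling to total reads that split was 7 and 4. Of 13 COMPASS subunits, which serve the H3K4 writers, 5 were higher and 5 lower, with CXXC1 and MEN1 at 0.40 each, DPY30 at -0.34 and ASH2L at -0.34. Of 10 partners of LSD1 3 were higher and 5 lower, with GSE1 at -0.54, HDAC1 at -0.24 and HDAC2 at -0.28. All 8 heterochromatin proteins passed in the averaged contrast, 7 higher and 1 lower, of which 4 higher and 1 lower were concordant. HELLS, a helicase needed for DNA methylation, was at 0.59, and CBX3, a reader of H3K9 methylation, was the lower one at -0.42.

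Further enzymes outside the chosen families were mixed as well. Of 12 other SET, PRDM and SMYD genes 5 were higher and 2 lower, with SETMAR at 0.71, SMYD5 at 0.37, PRDM4 at 0.21 and ASH1L at -0.27. Of 7 other JmjC genes 3 were higher and none lower, led by the H3K9 demethylase PHF8 at 0.49. Of 8 arginine methyltransferases 3 were higher and 2 lower, with PRMT5 at 0.39 and PRMT7 at 0.25.

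Among genes listed for substrate metabolism, lower calls outnumbered higher ones. Of 13 genes listed for the methyl donor cycle, relatives of its enzymes such as AHCYL1 among them, 4 were higher and 7 lower. NNMT, which uses up S-adenosylmethionine on nicotinamide, was at 0.96, SHMT1 at -0.37, MAT2A, which makes S-adenosylmethionine, at -0.29 and AHCYL1 at -0.24. Of 14 genes for supply or use of 2-oxoglutarate or removal of competing acids 3 were higher and 7 lower. IDH1 was at -0.75, OGDH, which uses up 2-oxoglutarate, at -0.40, GLUD1 at -0.34 and IDH3B at 0.32. Of 13 genes for methyl-CpG reading or base excision 4 were higher and 5 lower, with ZBTB38 at -0.76, GADD45A at -0.42, APEX1 at 0.50 and MBD4 at 0.29, a split that became 5 and 4 with scaling to total reads. Of 23 germline genes that DNA methylation commonly silences, 1 was listed, and it did not pass.

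Several of these enzymes, among them DNMT1, UHRF1, EZH2 and KMT5A, are known to vary through the cell cycle. Of 12 genes active in G2 or mitosis, all 12 were lower (median log2 change -0.53), with CCNA2 at -0.72, CENPE at -0.68, TOP2A at -0.61 and MKI67 at -0.55. Of 12 S phase genes 6 were higher and 3 lower, with MCM3 at 0.37, CDT1 at 0.47, TYMS at -0.42 and RRM2 at -0.62. Of 10 hypoxia genes 9 were lower and 1 higher (median -0.93), with SLC2A1 at -1.01, NDRG1 at -1.02, PFKFB3 at -0.98 and VEGFA at -0.92. Of these 10, 5 were concordant lower, and 5 were lower in EV_B than in EV_A (median log2 change of the 10 there -0.35). Of markers of other cell types, 2 of 4 endothelial genes were listed (KDR and ESAM, sums of 352.8 to 445.9 in TTP and 180.5 to 216 in EV libraries), while PECAM1 and CDH5 had no row. Of 7 luminal genes 4 were listed, at sums of 25680 to 27830 in TTP and 25010 to 33490 in EV libraries. Of the immune and fibroblast markers 3 of 5 and 3 of 4 were listed, at sums of 63.84 to 113.7 and 401 to 663.1 in TTP and 101.6 to 180.2 and 342 to 635.5 in EV libraries. The defining markers PTPRC and DCN had no row. The part of these genes, of the cell cycle and of hypoxia in the enzymes' changes was not tested.

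Promoter windows of 300 bases (250 before to 50 after the start, RefSeq, GRCh38.p14) matched 49 of the 52 enzymes, with 78 windows in all. They were searched on both strands for the E2F-type octamers TTTCCCGC and TTTGGCGC, which occur in 1.63% and 0.652% of all 35116 windows. The first was found in windows of NSD2, KDM1B and UHRF1 (3.85% of the enzymes' windows) and the second in 1 window of EZH2 (1.28%). NSD2, KDM1B and EZH2 were concordant lower, and UHRF1 was not concordant. For each gene the bases around 1 octamer are shown, with the octamer in capitals, 5′ to 3′ on the gene's strand. KDM1B held another match to the first octamer at chr6:18155206-18155213, which is not printed. In UHRF1 the capitals are its reverse complement.
NSD2, chr4:1871306-1871333: ggcgcgcactTTTCCCGCggcttctgcg
KDM1B, chr6:18155178-18155205: gccccgcctcTTTCCCGCgccccgcctc
EZH2, chr7:148884273-148884300: ggctgccgcgTTTGGCGCtcggtccggt
UHRF1, chr19:4909477-4909504: ccgagttttcGCGGGAAAaaaatcagag
The other concordant lower enzymes with a window held neither octamer there. All 78 windows held CG pairs, with a median of 30, against 14 over all windows.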

How the data were processed

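RNA of 16 libraries (4 clones, 4 each) was analysed. The authors deposited 1 table with a normalized signal per library: reads of each gene over that library's size factor, as its values show. Columns of the authors' own test (log2 fold change, p-value), per the file headers, were read but gave none of the values reported here. GRCh38 and the tools DESeq2, featureCounts, Subread 1.5.2, STAR 2.5.2b and Trimmomatic 0.36 appear in the submitters' processing notes without roles. The smallest mean listed was 9.68. Dividing by a library's smallest nonzero value gave whole numbers, within 0.001, for 100% of values, which recovers reads. In 2 TTP_H3 libraries that step lies close to 1, a weaker check.

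Tests were limma 3.58.1 (R 4.3.3, robust trend) on log2(value + 1), 1 fit of 4 clones, Benjamini-Hochberg adjustment over 14857 genes, no filter. A total of 10 gene ratios was tested by exact permutation of libraries, taken as independent though they come from 4 clones. The method was run on simulated data in which the clones of an arm did not differ. That run therefore cannot say how often differences between clones give a call. Alternatives included DESeq2 1.42.0 and edgeR 4.0.16 on recovered reads, other scalings, pseudocounts, a filter and designs, and leaving out libraries.

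Named with library values were concordant enzymes with at least 0.4 in each contrast, the 3 largest calls per direction within an arm, genes of ratios that passed and the DNA methylation group. Of other lists at most 4 concordant genes are named, of which a few are not reported here. The enzymes and lists were chosen with earlier results of these data known. Exons and UTRs are from GENCODE 29, which held 14820 listed genes and may differ from the authors' annotation.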

Additional observations from a re-analysis of the deposited data

Results flagged for a closer look

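Within a clone, 10 of 208 sets of 4 enzyme values and 1 of 40 sets of ratios held a library far from the other 3. Chance gives about 1 in 20, or 12 of 248. For UHRF1, replicate 1 of TTP_E11 stood at 3828 (others 3404 to 3475) and replicate 4 of EV_B at 4824 (others 4376 to 4443). The log2 ratio of UHRF1 to UHRF2 in replicate 1 of TTP_E11 was 3.36. In replicate 3 of TTP_H3, DNMT3B was low at 149.6 (others 186.7 to 190.2) and UHRF2 high at 429.9 (others 352.8 to 363.4). KMT2B was high at 2300 in replicate 2 of TTP_H3, and KMT2E low at 1368 in replicate 4 of TTP_E11 (others 1512 to 1517). In replicate 1 of EV_A, KDM5A was low at 651.3, and SETD1B and KMT2D were high at 879.3 and 1972. KDM1B was high at 872.0 in replicate 3 of EV_A.

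The changes against EV differed between TTP_H3 and TTP_E11 for 3 enzymes by the limma contrast of these clones. The differences on the log2 scale, TTP_H3 minus TTP_E11, were 0.16 for SETD1A, -0.16 for KMT2E and -0.12 for SETD5.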

How the results depend on the processing

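Reads on listed genes were between 14380767 and 22066098, and depth limits most what can be said of TET1, KDM4C and KDM4D, the enzymes at the lowest levels per kilobase. The counts of enzymes kept their size within 1.5 times under other pseudocounts, a filter at a mean of 50, TMM and upper quartile scaling, edgeR and DESeq2. The concordant enzymes were not all the same ones. KDM2A, KMT2A, NSD1 and NSD3 were not concordant lower with upper quartile scaling, nor was NSD1 with edgeR or DESeq2. DNMT3B was not concordant higher with DESeq2. With scaling to total reads, which was added after seeing the data, lower calls in TTP_E11 against EV numbered 12 (19 with the authors' scaling) and concordant lower calls 7 (12). With reads summed per clone, edgeR called 3 higher and 6 lower (15 and 21). That design has 4 samples in place of 16. Between TTP_H3 and TTP_E11, leaving out 1 library gave 0 to 3 higher and 0 to 3 lower, where 7.53% to 15.2% of all genes were called. Leaving out both libraries that stood apart, also added after seeing the data, gave 5 and 1, where 19.2% were called. Leaving out 1 library, the ratio of DNMT3B to DNMT3A ranged from -0.0108 to 0.0944 and reversed without replicate 1 or 4 of EV_A (-1e-04 and -0.0108). KMT2D to KMT2C ranged from -0.0459 to 0.0169 and reversed without replicate 1 of EV_B (0.0169). KDM5B to KDM5A ranged from -0.14 to -0.10, lost its call in 11 of 16 cases, and was -0.10 without both libraries that stood apart (exact permutation test, adjusted p = 0.106). Causes were not tested. UHRF1 reversed with EV_A as the only control (0.0443). Of 1312 values of single enzymes under alternatives, 1244 kept direction and call, 67 lost the call, 27 of them with reads summed per clone, and 1 reversed.

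The replicate numbers did not pair the libraries: over 24 same-numbered pairs, correlations of deviations ran from -0.088 to 0.096. With the replicate number as a block, 15 enzymes were higher and 21 lower, and 10 and 12 were concordant. In TTP_E11 against EV 18 were lower (19 without the block), and in TTP_H3 against EV 15 were higher (16 without it). The block changed no call in the averaged contrast, none of the largest calls within an arm and none of the ratios.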
